A study of Felis catus with 12 samples.

Results

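The thin filament of heart muscle was described here by 9 genes, read in the left ventricular free wall of 12 cats. The genes were chosen by name: troponin T, I and C of the adult ventricle (TNNT2, TNNI3 and TNNC1), the fetal and slow skeletal troponin I (TNNI1), tropomyosin (TPM1), the cardiac and skeletal sarcomeric actins (ACTC1 and ACTA1) and the pointed end proteins leiomodin 2 and tropomodulin 1 (LMOD2 and TMOD1). All 9 of these were among the 30785 genes listed, and 8 of them had at least 10 reads in at least 3 libraries and were tested. The exception was TNNI1. Within each library ACTA1 was compared with ACTC1, and TNNI1 with TNNI3, the pairs of isoform genes whose balance is known to change during heart development.

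The thin filament is a helix of actin monomers along which tropomyosin lies end to end. The troponin complex sits on tropomyosin: troponin C binds calcium, troponin I holds the filament in the blocked state and troponin T ties the complex to tropomyosin. The fetal heart contains slow skeletal troponin I, which the cardiac form replaces around birth. The balance of skeletal and cardiac actin also changes with development, in a direction that differs between species: in rodents the skeletal form declines after birth, whereas in the adult human ventricle it is abundant.

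The hearts came post-mortem from client-owned cats whose bodies had been kept cold. Each cat gave 1 library for direct RNA sequencing, in which 1 native RNA molecule is 1 read, and there was no replicate library. SDs and SEs thus rest on the spread between cats, which cannot be told apart from that between libraries. The labels give the cat number and the flow cell. Flow cell A held cats 11, 23, 30 and 31, flow cell B held cats 10, 15, 35 and 36, and flow cell C held cats 22, 29, 37 and 38. The outcome of each cat was looked up by its number in the study's cohort description: 6 cats (11, 15, 30, 31, 35 and 37) had congestive heart failure (HF), 3 (10, 23 and 38) had arterial thromboembolism (ATE), in which a clot formed in the heart blocks a distant artery, and cat 36 had no known cardiac death. The ATE group was not free of heart failure: heart failure was also recorded for cat 10 and cardiomegaly for cat 23. The study's captions call the ATE group HF with ATE. Cats 22 and 29 were left out of the main comparisons of outcome, age or fibrosis, because the labels and the study's list of sequenced cats differ there. The cohort description gives ATE for cat 22 and no known cardiac death for cat 29. Neither breed, age nor sex stands in the labels. The groups by outcome were spread unevenly over the flow cells: flow cell A held 3 congestive HF cats and 1 ATE cat.

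Libraries had 789257 to 2263110 reads on genes, and the 9 genes took 4.22% to 6.86% of them (median 5.80%). Levels are given as normalised reads, that is reads divided by 1 size factor per library, as deposited. The tissue label was checked against cell type markers. The 6 markers of ventricular cardiomyocytes were read in every library and took 9.05% to 14.4% of reads. The atrial markers were low (11 to 787 reads per library, with sarcolipin, SLN, at 0 in 10 libraries), with the highest MYL7 levels in cats 35 and 29. Of 8 markers of fast skeletal muscle, 6 were listed, and together they had 0 to 7 reads per library. ACTA1, which is the actin of skeletal muscle, was thus read in samples in which the defining genes of fast skeletal muscle were at or near 0. In such bulk RNA, fewer cells of a type and less RNA per cell cannot be told apart.

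Troponin T, which anchors the complex, was read 2517 to 9925 times per library. TNNT2 stood at 2763, 3381, 3746 and 3586 normalised reads in cats 11, 23, 30 and 31 of flow cell A. In flow cell B it stood at 7021, 7523, 5516 and 6605 in cats 10, 15, 35 and 36. In flow cell C it stood at 7164, 11001, 5655 and 6214 in cats 22, 29, 37 and 38. All 4 libraries of flow cell A were below all 8 others, with the highest level in cat 29.

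Troponin I of the adult ventricle showed a similar order with more spread. TNNI3 stood at 1780.5, 3306, 3267 and 2488 normalised reads in flow cell A (cats 11, 23, 30 and 31). In flow cell B the levels were 8539, 9162, 2639 and 11942 (cats 10, 15, 35 and 36). In flow cell C they were 10254, 13282, 6235 and 9690.2 (cats 22, 29, 37 and 38). Flow cell A overlapped with the rest only through cat 35, whose level lay inside the range of flow cell A. TNNI3 was the most variable member: over the 12 libraries its highest level was 7.46 times its lowest, and its SD on the log2 scale was 1.02, larger than that of 87.7% of the 8820 tested genes, whose median SD was 0.58.

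Troponin C, the calcium sensor, varied less. TNNC1 stood at 3089.9, 3717, 3309.8 and 5176 normalised reads in flow cell A (cats 11, 23, 30 and 31). Flow cell B gave 7787, 7987, 4619 and 10836 (cats 10, 15, 35 and 36). Flow cell C gave 6277, 7475, 5329 and 5115 (cats 22, 29, 37 and 38). Cat 31, the highest of flow cell A, was above cat 35 of flow cell B and cat 38 of flow cell C, so the groups overlapped, and cat 36 had the highest level.

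Tropomyosin was one of the 6 most read genes of every library. TPM1 stood at 14661, 15230.4, 12641 and 21851 normalised reads in flow cell A (cats 11, 23, 30 and 31). Flow cell B gave 32437, 35508, 19639 and 42075 (cats 10, 15, 35 and 36). Flow cell C gave 18819.8, 28937, 19983 and 20125 (cats 22, 29, 37 and 38). The 3 highest libraries were those of cats 36, 15 and 10 on flow cell B, while flow cells A and C overlapped. TPM1 held 93.2% to 97.7% of the reads of the 4 tropomyosin genes TPM1, TPM2, TPM3 and TPM4 in each library.

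**Figure D1:**
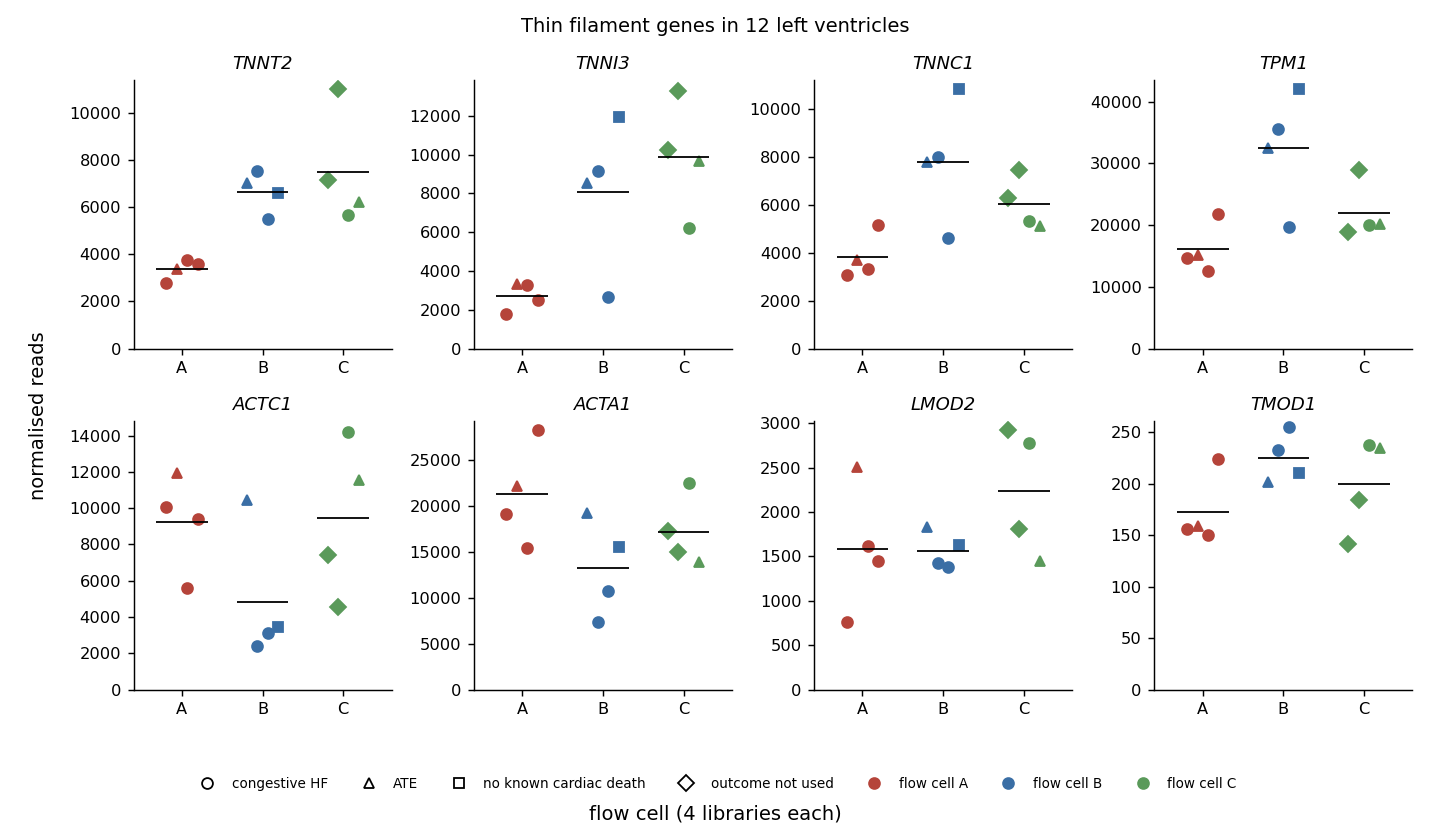
Normalised reads of 8 thin filament genes in 12 libraries, with flow cell on the x axis, 1 point per cat, colour for the flow cell, symbol for the outcome and a line at the mean of 4 libraries; each y axis starts at 0. TNNT2 was at most 3746 in the 4 libraries of flow cell A and at least 5516 in the 8 others, whereas ACTC1, ACTA1, LMOD2 and TMOD1 overlapped between flow cells.

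The 3 adult troponin genes were lower on flow cell A than on flow cells B and C, in a limma fit of log2(value + 1) over all tested genes. TNNT2 had 3369 ± 431 normalised reads on flow cell A and 7087 ± 1733 on the others (SD, n = 4 and 8 libraries), a log2 difference of -1.05 (SE 0.20, limma adjusted p = 0.00879). TNNI3 had 2710.2 ± 725 against 8968 ± 3325, a log2 difference of -1.64 (SE 0.34, limma adjusted p = 0.0145). TNNC1 had 3823 ± 939 against 6928 ± 2036, a log2 difference of -0.84 (SE 0.24, limma adjusted p = 0.0490). Of the 8 genes tested, 3 were called at an adjusted p under 0.05, all of them lower on flow cell A. Of the 8820 genes tested, 5.06% were called (446 genes), 3.46% lower (305 genes) and 1.6% higher (141 genes). The median log2 difference of the 8 members was -0.53, beside 0.03 over all genes tested. TNNT2 was the only member whose groups did not overlap, which held for 4.21% of all tested genes.

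The calls were not equally firm. TNNT2 passed the threshold without any single one of the 12 libraries (adjusted p between 0.00817 and 0.0495). TNNI3 lost its call without cat 11 (log2 difference -1.45, adjusted p = 0.0853). TNNC1 lost its call without any one of 10 libraries and kept it only without cat 35 or cat 38 (adjusted p between 0.0327 and 0.182 over the 12). With all genes that had a read, TNNC1 was not called (adjusted p = 0.158), and against a single flow cell TNNT2 missed the threshold with C (adjusted p = 0.0520) and TNNI3 with B (adjusted p = 0.0855). Within the 6 congestive HF cats alone, 3 of them on flow cell A, the log2 differences were -0.89 for TNNT2, -1.13 for TNNI3 and -0.63 for TNNC1, and none passed (adjusted p 0.198, 0.251 and 0.377). With 4 cats on each flow cell, differences between flow cells and differences between cats cannot be told apart.

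The other members did not pass the test between flow cells. TPM1 had 16096 ± 3994 normalised reads on flow cell A and 27190.4 ± 8866 on the others, a log2 difference of -0.72 (95% interval -1.28 to -0.17, limma adjusted p = 0.119). The differences of the actins were positive, 0.59 for ACTC1 (95% interval -0.31 to 1.49, adjusted p = 0.443) and 0.52 for ACTA1 (-0.056 to 1.10, adjusted p = 0.285). The genes of the pointed end proteins gave -0.33 for LMOD2 (-0.92 to 0.27) and -0.30 for TMOD1 (-0.71 to 0.11). Of the 8 differences, 6 were negative and 2 were positive.

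Markers of other cell types moved with the same split. Of the 6 ventricular cardiomyocyte markers, 3 were called lower on flow cell A (MYL3, MYBPC3 and MB), and the list took 9.05% to 13.5% of reads there against 9.67% to 14.4% on flow cells B and C. Of 5 smooth muscle markers, 4 were tested and 2 were called higher (TAGLN and CNN1), with the list at 0.0362% to 0.102% of reads against 0.00734% to 0.0235%, and CNN1 was at 0 in 3 libraries. Of 6 fibroblast markers, 2 were called higher (COL1A1 and COL3A1), with the list at 0.0884% to 0.301% against 0.0208% to 0.148%. Of the endothelial markers (4 tested) and the leukocyte markers (3 tested, with LYZ at 0 in every library) 0 were called, and the 4 adipocyte markers had 1 to 14 reads per library in all. The part of these cells in the troponin, actin and cofilin levels was not tested.

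**Figure D2:**
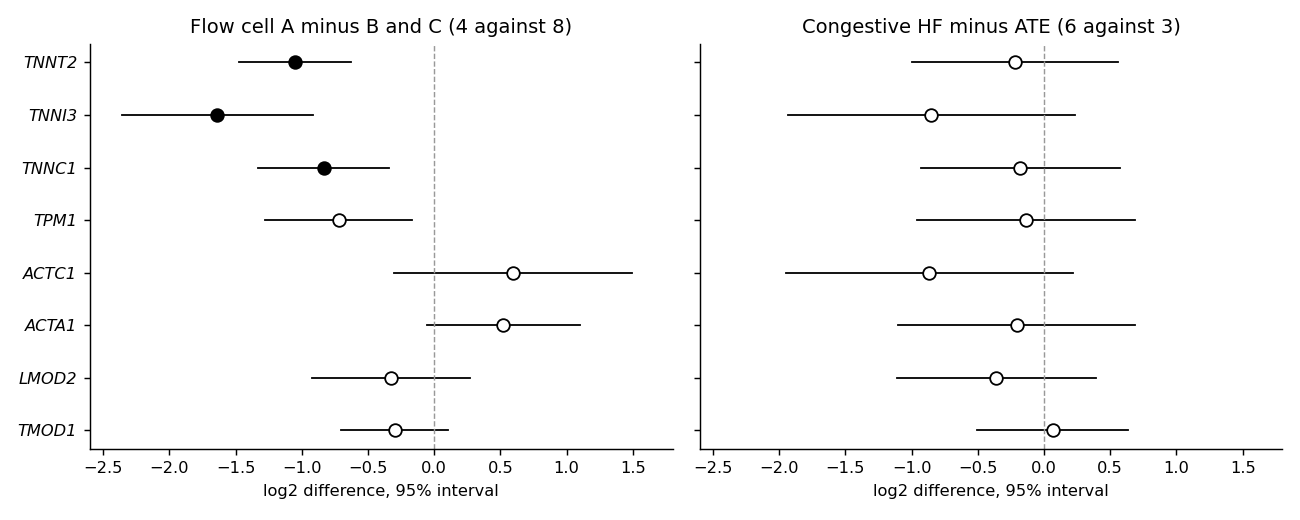
Log2 differences in normalised reads with 95% intervals for 8 thin filament genes, between flow cells (left, 4 against 8 libraries) and between outcomes (right, 6 against 3); filled points had a limma adjusted p under 0.05. TNNT2, TNNI3 and TNNC1 were lower on flow cell A, and every interval between outcomes included 0.

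ACTA1 ranked between 3 and 16 and ACTC1 between 7 and 55 among all genes by reads in the 12 libraries, and ACTA1 had more reads than ACTC1 in 12 of 12 libraries. ACTC1, the cardiac actin, stood at 10076, 11913, 5596 and 9423 normalised reads in flow cell A (cats 11, 23, 30 and 31). Flow cell B gave 10431, 2398, 3116 and 3473 (cats 10, 15, 35 and 36). Flow cell C gave 7407, 4535, 14224 and 11576 (cats 22, 29, 37 and 38). Cats 15, 35 and 36 on flow cell B had the 3 lowest levels, and cat 10 of the same flow cell stood within the range of flow cells A and C.

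ACTA1, the skeletal actin, stood at 19158, 22222, 15464 and 28229 normalised reads in flow cell A (cats 11, 23, 30 and 31). Flow cell B gave 19205, 7415, 10702 and 15487 (cats 10, 15, 35 and 36). Flow cell C gave 17247, 15034, 22523 and 13896 (cats 22, 29, 37 and 38). Cats 15 and 35 again had the lowest levels and cat 31 the highest. ACTA1 and ACTC1 code for nearly identical proteins, and reads of one gene that were counted for the other cannot be seen in a table of counts per gene, so that their ratio carries this uncertainty.

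Within a library, the ratio of the pair does not depend on the size factor. Reads were not divided by transcript length. The ratio of ACTA1 to ACTC1 was 1.90 in cat 11, 3.09 in cat 15, 2.76 in cat 30, 3.00 in cat 31, 3.43 in cat 35 and 1.58 in cat 37, the congestive HF cats. It was 1.84, 1.87 and 1.20 in the ATE cats 10, 23 and 38, and 4.46 in cat 36 without known cardiac death, the highest of all. Cats 22 and 29 had 2.33 and 3.31. The shares of ACTA1 in the reads of the pair ran from 54.6% (Wilson 95% interval 54.0 to 55.1, cat 38) to 81.7% (81.2 to 82.2, cat 36). These intervals cover counting error only.

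The mean of this ratio was lower in the ATE cats, but the difference did not pass the test. Its log2 was 1.34 ± 0.44 in 6 congestive HF cats and 0.68 ± 0.36 in 3 ATE cats (SD), a difference of 0.66 (two-sided exact permutation p = 0.0833, Benjamini-Hochberg adjusted p = 0.167 over 4 comparisons, smallest p possible 0.0119). The groups overlapped, because cat 37 with congestive HF was below 2 of the 3 ATE cats. Within each flow cell the ATE cat had the lowest ratio among the cats compared. Cat 22 on flow cell C, an ATE cat in the cohort description, was not entered. Its ratio of 2.33 was above that of cat 37 (1.58) on the same flow cell. With each flow cell centred on its mean and labels exchanged only within flow cells, the difference was 0.56 (exact permutation p = 0.0417, the smallest that the 24 groupings allow, adjusted p = 0.0833 over the 2 ratios). Without cat 37, the cat behind the overlap, the groups separated fully, so that the p took its smallest possible value. The difference was then 0.80 and passed the threshold (exact permutation, adjusted p = 0.0357). Leaving out the 1 cat that overlapped fixed this p, so no conclusion was drawn from it. No other of the 12 alternatives passed. Between flow cell A and the others, the log2 ratios of 1.22 ± 0.36 and 1.29 ± 0.65 (SD, n = 4 and 8) differed by less than their spread (difference -0.071, exact permutation p = 0.832, adjusted p = 0.832).

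The ratio was also set against myocardial fibrosis in 8 cats and age in 9, which with the troponin I pair made 4 relations. Pearson's r with fibrosis was -0.17, with an exact permutation p of 0.667 (0.929 after adjustment). Spearman's rho with fibrosis was -0.24, with an exact permutation p of 0.582 (0.843 after adjustment). With age, r was -0.035 and rho -0.17, with exact permutation p of 0.929 and 0.678 (0.929 and 0.843 after adjustment). Neither passed. Without the 2 cats farthest from the median, r was -0.43 for fibrosis, and for age -0.52 or 0.17, depending on which of 2 equally distant cats was left out. With each flow cell centred on its mean, r was -0.44 for fibrosis in 7 cats (exact permutation p = 0.361) and -0.11 for age (exact permutation p = 0.837).

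**Figure D3:**
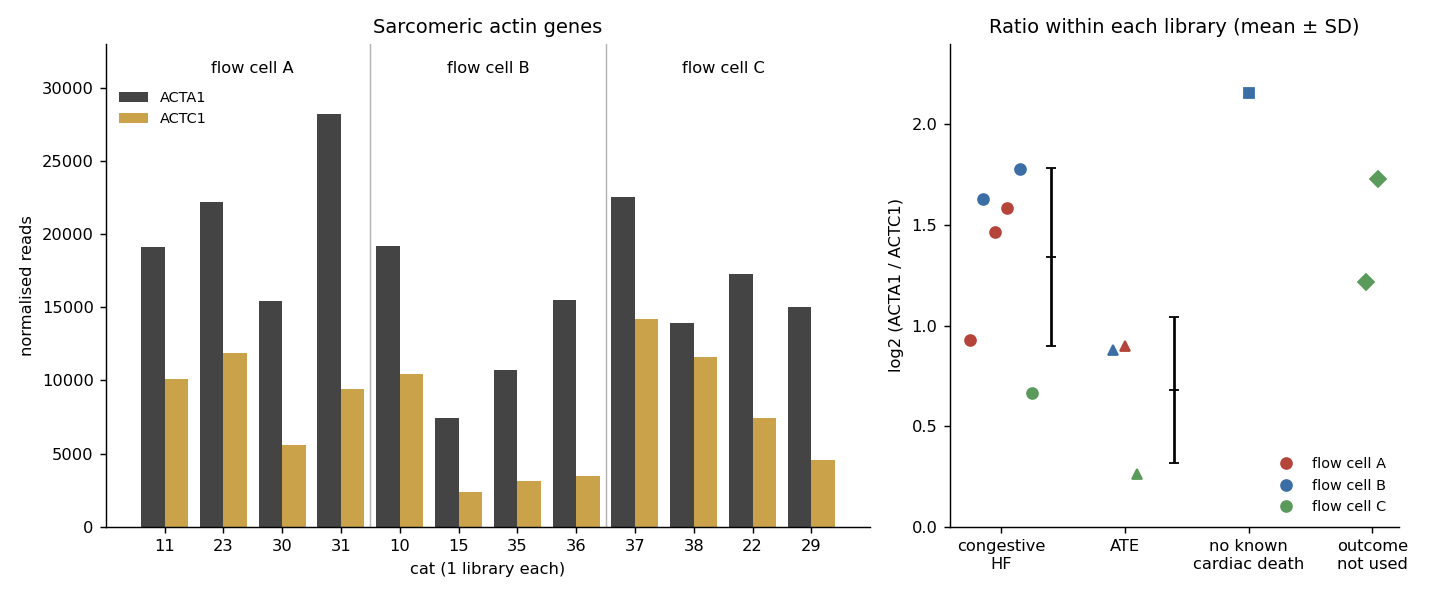
Left, normalised reads of ACTA1 and ACTC1 in each of 12 libraries, ordered by flow cell; right, log2 of their ratio by outcome, 1 point per cat coloured by flow cell, with mean ± SD beside groups of 3 or more. ACTA1 was above ACTC1 in all 12 libraries, and the 3 ATE cats had log2 ratios of 0.26 to 0.90.

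Fetal troponin I was near the limit of detection. TNNI1 had 5 reads in cat 11 and 6 reads in cat 31, both congestive HF cats on flow cell A, and 0 reads in the 10 other libraries. In cat 11 it made up 0.135% of the reads of TNNI1 and TNNI3 (exact 95% interval 0.0440 to 0.316), and in cat 31 it made up 0.192% (0.0705 to 0.417). In the libraries with 0 reads, a floor of 3 reads corresponds to a share of 0.0224% in cat 36, which had 13412 troponin I reads, and of 0.122% in cat 23, which had 2461, the ends of the range. The upper bounds of the exact 95% intervals there were 0.0275% and 0.1498%. The share of cat 11 was thus below what 0 reads allowed in cat 23. In every other library with 0 reads the upper bound was lower, at most 0.110% (cat 35). Those bounds were below the shares of cats 11 and 31, although the interval of cat 11 reached down to 0.0440%. TNNI2, the fast skeletal troponin I, had 0 to 2 reads per library.

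The log2 ratio of TNNI1 to TNNI3, with 1 added to each value, was -10.29 ± 1.62 on flow cell A and -13.00 ± 0.74 on the others (SD, n = 4 and 8, difference 2.71, exact permutation p = 0.00606, adjusted p = 0.0242). With TNNI1 at 0 in 10 libraries, this ratio is set by the pseudocount and the level of TNNI3 there, and the call was lost without cat 11 or cat 31 (difference 2.30 and 2.20, exact permutation, adjusted p = 0.0727 for each). Between congestive HF and ATE the difference was 1.57 (exact permutation p = 0.167, adjusted p = 0.222). Against fibrosis r was -0.041 and rho -0.095, and against age r was -0.24 and rho 0.083 (exact permutation, adjusted p between 0.843 and 0.929). Without the 2 cats farthest from the median, r was 0.17 for fibrosis and -0.24 or -0.61 for age, and with each flow cell centred it was -0.30 and -0.67 (exact permutation p = 0.618 and 0.292).

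Among the troponin T genes, the slow skeletal TNNT1 was read in every library, with 224 to 1924 normalised reads. Its reads were 4.92% of those of TNNT2 in cat 29, the lowest, 24.1% in cat 31 and 34.9% in cat 35, the highest. The fast skeletal TNNT3 had 5 reads in 1 library and none in the other 11. TNNT1 passed neither test (log2 difference -0.60 between flow cells, adjusted p = 0.406, and 0.33 between congestive HF and ATE, adjusted p = 0.984).

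The pointed end of the filament is capped by tropomodulin and elongated by leiomodin. LMOD2, which lengthens thin filaments in heart muscle, stood at 765, 2504, 1621 and 1446 normalised reads on flow cell A (cats 11, 23, 30 and 31). Its range was 1381 to 1827 on flow cell B and 1447 to 2920.4 on flow cell C. Cat 11 had the lowest level and cat 22 the highest, and all flow cells overlapped. TMOD1, the cap itself, had 105 to 324 reads per library, the fewest of the tested members, and ranged from 142 normalised reads in cat 22 to 255 in cat 35. It was the most even member, with an SD of 0.30 on the log2 scale, a value below that of all but 6.15% of tested genes, and its coefficient of variation of 19.9% over cats compares with 7.16% from counting alone. For the other tested members, counting gave 0.667% (TPM1) to 2.48% (LMOD2), against 32.4% (ACTA1) to 59.3% (TNNI3) over cats. Reads of LMOD2 were 4.91 times those of TMOD1 in cat 11 and 20.6 times in cat 22, the 2 ends of the range.

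Congestive HF and ATE were compared in 6 and 3 cats, and no member passed the test. TNNI3 ranged from 1780.5 to 9162 normalised reads (median 2953) in congestive HF and stood at 8539, 3306 and 9690.2 in the ATE cats 10, 23 and 38. The 4 lowest congestive HF libraries (cats 11, 30, 31 and 35) were below all ATE libraries, whereas cats 15 and 37 lay within the ATE range. The log2 difference was -0.85 (SE 0.50, 95% interval -1.94 to 0.24, limma adjusted p = 0.956).

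ACTC1 differed by a similar amount, and which of the 2 differences was larger depended on the tool. ACTC1 ranged from 2398 to 14224 normalised reads (median 7509) in congestive HF and stood at 10431, 11913 and 11576 in the ATE cats. The ATE cats were close together and 5 of the 6 congestive HF cats were below all of them, but cat 37 was above. The log2 difference was -0.87 (SE 0.50, 95% interval -1.95 to 0.22, limma adjusted p = 0.956). With flow cell as a covariate it was -0.81, and that of TNNI3 was -0.61 (limma adjusted p = 0.907 and 0.907). With edgeR the log2 difference was -0.59 for ACTC1 and -0.75 for TNNI3.

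The remaining members differed by less than their spread. The log2 differences were -0.22 for TNNT2 (95% interval -0.995 to 0.56), -0.18 for TNNC1 (-0.93 to 0.57), -0.13 for TPM1 (-0.96 to 0.69) and -0.21 for ACTA1 (-1.10 to 0.69). For the genes of the pointed end proteins they were -0.36 for LMOD2 (-1.11 to 0.39) and 0.065 for TMOD1 (-0.50 to 0.63). Of the 8 members, 0 were called by limma at an adjusted p under 0.05, 0 had an unadjusted p under 0.05, and edgeR and DESeq2 also called 0. Among all 8588 genes tested, limma called 0 (0.0%), 374 had an unadjusted p under 0.05, edgeR called 0 and DESeq2 called 1. The groups overlapped for all 8 members, whereas they did not overlap for 2.19% of tested genes. The median log2 difference of the members was -0.21, beside -0.0032 over all genes tested.

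Of the cell type markers, 0 were called between the outcomes. The ventricular cardiomyocyte list took 9.05% to 13.5% of reads in congestive HF and 10.4% to 13.99% in ATE. The cat without known cardiac death had the highest levels of TNNC1 and TPM1 (10836 and 42075 normalised reads) and the highest TNNI3 among the 10 cats of known outcome (11942), and with 1 such cat no test was made.

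Slopes on myocardial fibrosis and on age were fitted to the same genes. For fibrosis in 8 cats, 0 of the 8 members were called or had an unadjusted p under 0.05, and limma called 0 of 8400 genes (0.0%; 212 with an unadjusted p under 0.05). The member slopes per percentage point of fibrosis ran from -0.017 on the log2 scale for TMOD1 (95% interval -0.11 to 0.075) to 0.038 for LMOD2 (-0.078 to 0.15), with a median of 0.022 beside -0.0015 over all tested genes. For age in 9 cats, 0 members were called or had an unadjusted p under 0.05, and limma called 0 of 8439 genes (0.0%; 386 with an unadjusted p under 0.05). The slopes per year ran from -0.039 for TPM1 (-0.12 to 0.045) to 0.037 for LMOD2 (-0.03 to 0.10), with a median of -0.024 beside -0.0027 over all tested genes. In both fits edgeR and DESeq2 called 0 genes.

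The other genes of the thin filament were described from a list of 30 genes, of which 29 were in the table and 20 passed the filter on reads. Between flow cells 6 of the 20 were called, 4 higher and 2 lower on flow cell A, beside 5.06% of all genes. The median log2 difference of the 20 was 0.38, beside 0.03 over all genes. Between outcomes and on fibrosis and age 0 of 20 were called.

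The cofilins, which sever and depolymerise actin filaments, were among those higher on flow cell A. CFL2, the muscle cofilin, stood at 1198, 508, 646 and 1623 normalised reads in cats 11, 23, 30 and 31 and at 215 to 431 in the 8 others. The groups did not overlap, and cats 11 and 31 were highest (log2 difference 1.51, SE 0.28, limma adjusted p = 0.00799). CFL1, the non-muscle cofilin, stood at 440.2, 180.0, 206 and 298 in the same cats and at 81.7 to 188 in the others (log2 difference 0.97, limma adjusted p = 0.0353), and here cat 23 lay within the range of the others.

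ACTB and TPM4 were the other genes called higher. ACTB, cytoplasmic actin, stood at 1452, 752, 804 and 801 normalised reads on flow cell A and at 177 to 622 in the others, with no overlap (log2 difference 1.25, limma adjusted p = 0.0201). TPM4, a cytoskeletal tropomyosin, stood at 559.9, 313, 299 and 218 on flow cell A and at 98.0 to 231 in the others (log2 difference 1.07, limma adjusted p = 0.0261), where cat 31 lay below cat 22 of flow cell C.

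The 2 genes that were lower were FHOD3 and TPM3. FHOD3, a formin needed for sarcomere assembly, stood at 47.8, 149, 119 and 85.3 normalised reads on flow cell A and at 131 to 297 in the others, with cat 29 as the only one below cat 23 (log2 difference -1.26, limma adjusted p = 0.0151). TPM3, the slow skeletal tropomyosin gene, stood at 441, 646, 614 and 253 on flow cell A and at 702 to 1407 in the others, with no overlap (log2 difference -1.12, limma adjusted p = 0.0176). Without cat 11, 5 of the 6 calls were lost, with adjusted p of 0.0853 for TPM3, 0.0853 for FHOD3, 0.113 for ACTB, 0.144 for TPM4 and 0.179 for CFL1. Without cat 31, FHOD3 (0.0544), TPM3 (0.0719), ACTB (0.0524) and CFL1 (0.111) lost it. CFL1 also lost it without cat 10, 15, 36 or 38 (adjusted p between 0.0544 and 0.0576), and CFL2 kept it without any single one of the 12 libraries.

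**Figure D4:**
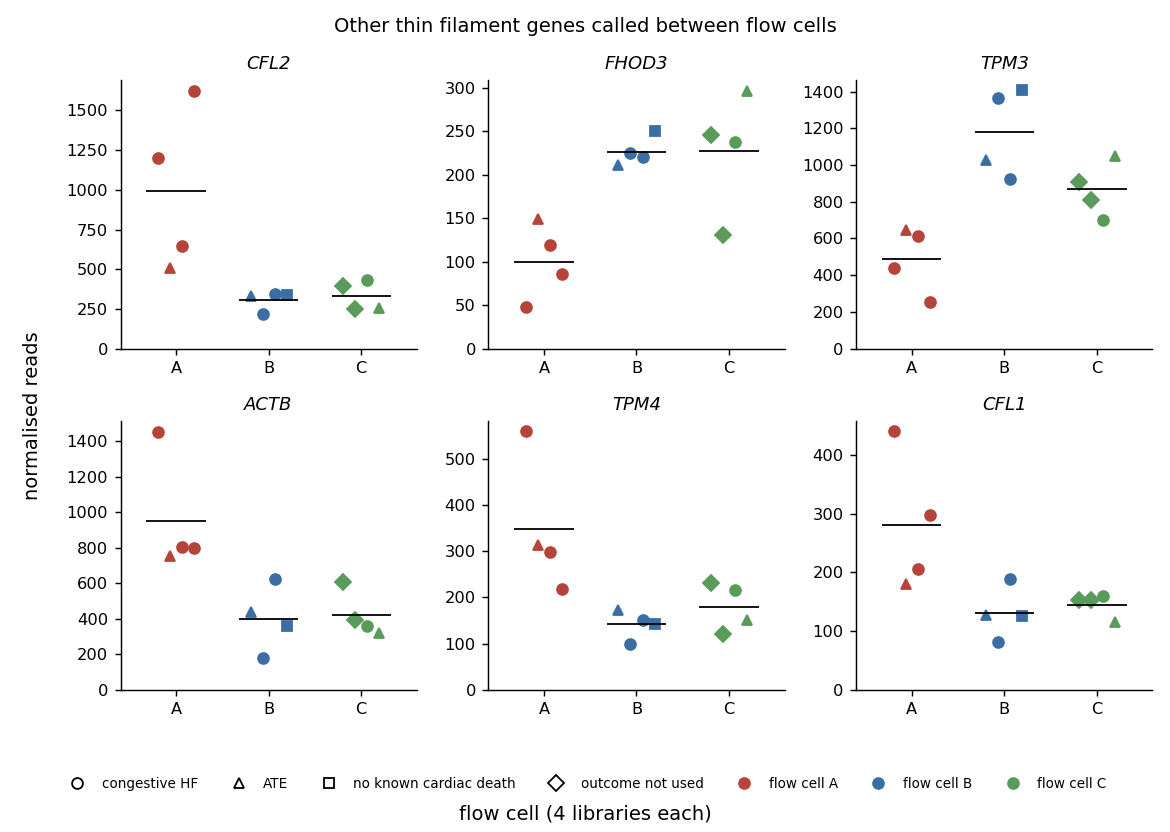
Normalised reads of the 6 other thin filament genes called between flow cells, with flow cell on the x axis, 1 point per cat, symbol for the outcome and a line at the mean of 4 libraries; each y axis starts at 0. CFL2, ACTB, TPM4 and CFL1 were higher on flow cell A and FHOD3 and TPM3 lower.

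The members fell into groups by how their levels varied together over the 12 libraries, given here as a description. The troponins and tropomyosin varied together over the cats: Pearson's r of log2(value + 1) was 0.96 between TNNC1 and TPM1, 0.90 between TNNT2 and TNNI3 and 0.83 between TNNI3 and TNNC1. The 2 actins had an r of 0.80. Between the actins and these 4 genes all 8 coefficients were negative, from -0.48 (TPM1 and ACTC1) to -0.23 (TNNI3 and ACTC1). With each flow cell centred on its mean, the coefficient was 0.93 for TNNC1 and TPM1 and 0.71 for the actins. It was 0.67 for TNNT2 and TNNI3, 0.60 for TNNT2 and TNNC1 and 0.57 for TNNT2 and TPM1, each lower than before centring. ACTC1 kept negative coefficients with the 4 genes (-0.50 to -0.068), and those of ACTA1 ran from -0.18 to 0.36. The points share libraries and their size factors, and near-identical actin genes could share reads. Genes outside the thin filament reached 0.97 with TNNT2 (MRPL28) and with TNNI3 (NDUFB10), above the 0.90 between these members. For TNNT2 and TNNI3 such co-variation was thus not particular to the thin filament.

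The reads of TNNT2, TNNI3 and TNNC1 together were also set against those of the 2 actins within each library. There were 0.261, 0.305, 0.490 and 0.299 troponin reads per actin read in cats 11, 23, 30 and 31 of flow cell A. Flow cell B gave 0.788, 2.51, 0.924 and 1.55 (cats 10, 15, 35 and 36), and flow cell C gave 0.961, 1.62, 0.469 and 0.825 (cats 22, 29, 37 and 38). Flow cell A was lowest apart from cat 30, which was above cat 37, and cat 15, with the lowest actin levels, had the highest value. This quantity was chosen after the values were seen and was not tested.

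**Figure D5:**
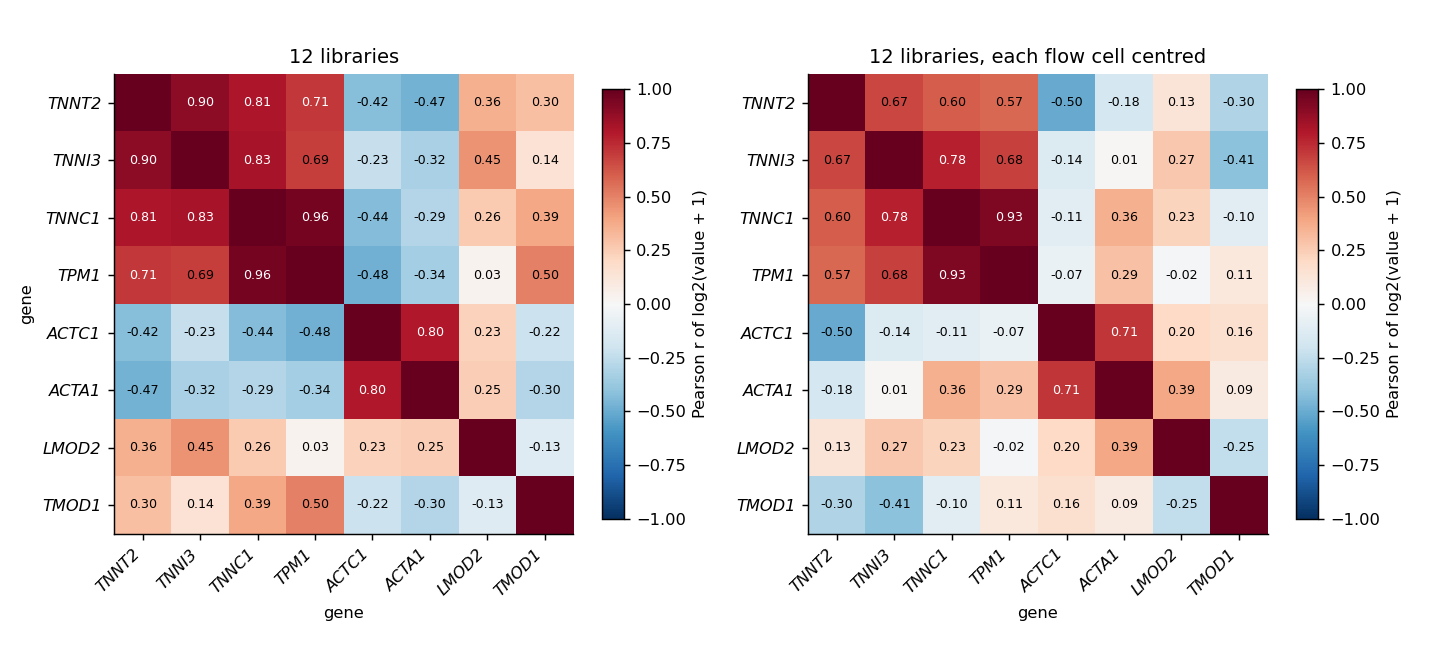
Pearson's r of log2(value + 1) between 8 thin filament genes over 12 libraries, as levels (left) and with each flow cell centred on its mean (right); red is positive and blue negative. TNNT2, TNNI3, TNNC1 and TPM1 had coefficients of 0.69 to 0.96 with each other, and ACTC1 and ACTA1 one of 0.80.

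The genes most like single members, outside the 9, were found by the same coefficient over 12 libraries among the tested genes. For TNNI3 these were NDUFB10 (r = 0.97), NDUFS3 (0.97) and NDUFS8 (0.97), which code for subunits of complex I of the respiratory chain. For TNNT2 they were MRPL28 (0.97), a mitochondrial ribosomal protein, the complex I subunit NDUFB9 (0.97) and LOC101095032 (0.96). Centred on flow cells, these 6 coefficients were between 0.85 and 0.94. For ACTC1 they included DLL1 (0.91) and PPP2CA (0.89), and for ACTA1 they were IGFBP5 (0.92), ARMCX3 (0.90) and RPS6KC1 (0.90). DLL1, a Notch ligand, had only 1 to 16 reads per library. TNNI1 had too few reads for such a comparison.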

How the data were processed

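RNA of the left ventricular free wall of 12 cats was sequenced on Nanopore flow cells, 4 libraries on each of 3. Per the study's methods, the authors called bases with Guppy, kept reads of quality above 7, aligned them to felCat9 with Minimap2 and counted reads per gene with FeatureCounts. The deposited signal values are these reads after division by a size factor of the library (0.699 to 2.07), a step that is not given in the sources used here, and 100.0% of them were whole multiples of 1 read (tolerance 1e-06), so reads were recovered. Depth was 789257 to 2263110 reads. Intervals of shares cover counting error only, and those of log2 differences and slopes rest on the spread between cats.

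Samples were grouped by flow cell from the labels. Outcome, age and fibrosis were looked up by cat number. log2(value + 1) was fitted with limma 3.58.1 (R 4.3.3) over the genes that reached 10 reads in 3 or more libraries of a fit, with Benjamini-Hochberg adjustment over all of them at 0.05. Ratios within libraries were tested by two-sided exact permutation (scipy 1.17.1). Shares have 95% intervals, Clopper-Pearson for TNNI1 and Wilson for ACTA1. The alternatives were other pseudocounts, no filter, TMM scaling, edgeR 4.0.16, DESeq2 1.42.0, flow cell as a covariate, single flow cells and each library left out. The scripts were tested on simulated data. The 9 genes and all lists were chosen with earlier results of these data known. Named were the 9 genes, the other thin filament genes called in any fit, and for 5 of the 9 genes the 3 genes most correlated with each, of which 1 is not reported here. No sequence is shown, since no genome of the files' build was used here.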

Additional observations from a re-analysis of the deposited data

Results flagged for a closer look

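In 38 groups of 4 to 6 libraries, the highest or lowest level of the 9 genes and of the ratio of ACTA1 to ACTC1 was compared with the others by Dixon's criterion, which chance meets in about 1 of 20 groups, and 3 were met. TPM1 stood at 28937.3 normalised reads in cat 29, against 18819.8 to 20124.6 in the 3 other libraries of flow cell C. ACTC1 stood at 10430.6 normalised reads in cat 10, against 2397.8 to 3472.5 in the 3 other libraries of flow cell B. Cat 10 was the ATE cat of that flow cell. TMOD1 stood at 224.1 normalised reads in cat 31, against 149.8 to 158.5 in the 3 other libraries of flow cell A.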

How the results depend on the processing

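Of 713 recomputed values, 633 kept their direction and their side of the threshold, and these include results that passed no test. A call was lost in 50 and gained in 2, the sign turned in 24, and 4 counts of called members changed. TNNC1 lost its call between flow cells in 14 of 21 alternatives and CFL1 in 10 of 21. Between flow cells the count of 3 called members became 1 with flow cell A against B alone, 1 against C alone and 0 among congestive HF libraries alone, and 1 to 3 without single libraries. The count over all genes was 446, and it was 869 by DESeq2, 317 without the filter, 187 against flow cell B alone, 66 against C alone, 4 among congestive HF libraries, 67 without cat 11, 129 without cat 31 and 297 without cat 15. DESeq2 also called TPM1 (log2 difference -0.76, adjusted p = 0.0320). The analyses of flow cells B and C alone and of congestive HF alone were chosen after seeing the data. With cats 22 and 29 entered as labelled, limma called 0 members between outcomes, on fibrosis or on age. Between outcomes 1 member then had an unadjusted limma p under 0.05, and the median log2 difference of the members was -0.29. Leaving out single libraries turned the sign of some differences that passed no test, and the cause was not tested. Between congestive HF and ATE the log2 differences ranged from -0.43 to 0.0999 for TNNC1, -0.38 to 0.16 for TPM1, -0.40 to 0.011 for ACTA1 and -0.086 to 0.19 for TMOD1. Fibrosis slopes ranged from -0.049 to 0.0077 for TMOD1 and from -0.023 to 0.063 for LMOD2. For the log2 ratio of ACTA1 to ACTC1, the difference between congestive HF and ATE ranged from 0.45 to 0.80 and that between flow cells from -0.22 to 0.053, with rho on fibrosis from -0.50 to 0.036, r on age from -0.22 to 0.36 and rho on age from -0.43 to 0.19. For the ratio of TNNI1 to TNNI3, the difference between flow cells ranged from 2.20 to 3.18, with r on fibrosis from -0.15 to 0.15, rho on fibrosis from -0.36 to 0.18, r on age from -0.47 to 0.0040 and rho on age from -0.31 to 0.36. No paired analysis was possible because no cat number occurs in more than 1 group. Depth limits TNNI1, which had 11 reads in all.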
